A study of Mus musculus with 24 samples.

Results

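The genes described here encode the nuclear subunits of the mitochondrial respiratory chain and of ATP synthase, measured around the clock in the mouse adrenal. Members were all genes whose symbol on the array begins with Nduf, Sdha, Sdhb, Sdhc, Sdhd, Uqcr, Cox4, Cox5, Cox6, Cox7, Cox8 or Atp5, each represented by its brightest probe set. This gave 94 of the 18193 genes with a probe set of 1 symbol, and 91 of them passed the filter on dim signals and were tested among 13879 genes. Cox7b2, Cox7c and Ndufb4 did not pass it, and 10 probe sets that carry several symbols were left out. The prefix also takes in 12 assembly factors (Ndufaf1 to Ndufaf8 and Sdhaf1 to Sdhaf4), which build the complexes and are not part of them, so 79 of the tested members are subunits.

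The respiratory chain passes electrons from NADH and succinate through complexes I, II, III and IV to oxygen and pumps protons across the inner mitochondrial membrane, and ATP synthase uses the returning protons to make ATP. Adrenal cortex mitochondria are also the site where cholesterol is cut in the opening step of corticosteroid synthesis, and the adrenal is known for a daily rhythm of corticosteroid release. The subunits fall into catalytic core proteins, many of them conserved from bacteria, and small accessory proteins found only in eukaryotes, and complex IV has several subunits with tissue-restricted isoforms.

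All samples were whole adrenals of male C57B/6J mice aged 3 months, with no genotype or drug difference between groups. Mice had lived for 2 weeks under 12 h of light and 12 h of dark, and were then killed in constant darkness. The arrays cover 12 times, the earliest at 38 and the latest at 82 h after lights off, and each time has 2. Hours minus 12, modulo 24, give projected circadian times 2, 6, 10, 14, 18 and 22, so that lights would have come on at 0. Nothing in the labels tells whether both arrays of a time stem from different mice, so every p-value reflects just the variation among these samples, and that may be technical.

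Several features of the arrays touch all results. In 6 pairs of arrays the values agreed within 5%, less than the noise between arrays, and each pair was counted as 1 sample, leaving 18 profiles, 3 per circadian time. Of these pairs 5 joined arrays labelled 24 h apart, at the same circadian time. The 8 arrays of circadian times 10 and 18 (6 profiles) differed from the rest (12 profiles) in the signal of ThrX-3, a bacterial transcript used as a spiked-in control, and they form the second array set, the rest the first. Adrenal cortex markers were high in every profile, with a summed signal of 65204 to 68664 in the first set, 61195 to 64377 at circadian time 10 and 55085 to 65272 at circadian time 18. Those of the medulla summed to 32799 to 41578, 32057 to 34720 and 32214 to 39565. Markers of other tissues varied, and their part in the results was not tested. Summed skeletal muscle markers (11 of 11 on the array, 7 past the filter) read 1505 to 2039 in the first set, with Mylpf and Tnnt3 at 0 there, against 1600 to 18417 at circadian time 10 and 2318 to 52367 at 18. Brown fat markers (6 of 6, 5 past the filter) read 3422 to 20995, 12741 to 15168 and 7024 to 17969. General fat markers (4 of 6 on the array) read 10277 to 20373, 12857 to 15640 and 12007 to 21071, and liver markers (5 of 6) 790.1 to 2262, 1479 to 1756 and 1725 to 16542. Blood markers (2 of 3) read 400.4 to 624.6, 848 to 1308 and 592.5 to 1468, and kidney markers (3 of 4) 1239 to 1478, 1228 to 1274 and 764.9 to 1258. Gapdh signal from the 5' end over that from the 3' end, which falls as RNA degrades, was 1.05 to 1.13 in the first set, 0.846 to 0.949 at circadian time 10, and 0.95, 0.978 and 0.0386 at 18, where 78 h replicate 2 stood apart. The log2 signal of the 18S ribosomal RNA probe set nearest the 3' end was 12.35 to 12.65 in the first set, 11.28 to 11.37 at circadian time 10 and 9.36 to 10.98 at 18, so that the 3 groups did not overlap. The part of these RNA measures in the results was not tested.

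Few respiratory chain genes passed the test of a 24 h rhythm. Of the 91 members 6 did (6.59%), against 12.8% of all genes tested (limma, moderated F test on a 24 h cosine and sine, Benjamini-Hochberg adjusted p below 0.05 over all genes). They were 4 assembly factors (Sdhaf4, Ndufaf2, Sdhaf3 and Ndufaf5) and 2 subunits, Atp5g1 of the ATP synthase c ring and the complex I accessory subunit Ndufb10. An unadjusted p below 0.05 was seen for 26 members (28.6%, against 30.9% of all genes). Of the 29 tested members of complexes II, III and IV, 0 passed and 3 had an unadjusted p below 0.05. With the array set as a block beside the cosine, 17 members passed (18.7%), close to the 17.8% of all genes. In the first array set alone 4 passed (4.4%, against 12.3% of all genes), all of them assembly factors, and 0 of the 79 subunits did, 2 of which had an unadjusted p below 0.05, against 27.8% of all genes at that threshold.

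Atp5g1, which encodes a precursor of the proton-carrying c ring, had log2 signals of 11.40 to 11.53 at circadian time 2, 11.38 to 11.44 at 6, 10.46, 10.48 and 10.57 at 10, 11.45 to 11.58 at 14, 11.23, 11.44 and 11.56 at 18, and 11.44 to 11.68 at 22. All profiles of circadian time 10 were below all others. Among the other 5 times most ranges overlapped, but circadian time 6 lay wholly below 14. Its 24 h amplitude, taken from the fitted mean up to the peak, was 0.35 ± 0.09 (log2, SE, n = 18) with an adjusted p of 0.0484 in limma. With the block the amplitude was 0.31 ± 0.06 with a peak at 19.8 h and an adjusted p of 0.00497, and in the first set alone it was 0.09 ± 0.04 (adjusted p 0.206 in limma).

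Sdhaf4, a chaperone that hands the flavin-carrying subunit to complex II, was the only member called in all 3 fits. Its log2 signal was 11.49 to 11.55 at circadian time 2, 11.43 to 11.47 at 6, 10.90 to 11.04 at 10, 11.25 to 11.31 at 14, 11.11 to 11.20 at 18 and 11.39 to 11.48 at 22. It was thus high at 22, 2 and 6, lower at 14 and 18 and lowest at 10, and none of times 10, 14 and 18 overlapped with the high times. The amplitude was 0.21 ± 0.05 without the block (adjusted p 0.0149 in limma), 0.13 ± 0.03 with it (adjusted p 0.0139) and 0.11 ± 0.02 in the first set (adjusted p 0.0069).

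The other factors called in the first set had different phases. Ndufaf3, an assembly factor of complex I, was at 10.66 ± 0.08 at circadian time 2 and 10.67 ± 0.03 at 6, against 10.41 ± 0.03 at 14 and 10.54 ± 0.02 at 22 (SD, n = 3 each), with a first-set peak at 4.1 h and an adjusted p of 0.00765 in limma. Sdhaf1, needed to insert the iron-sulphur clusters of complex II, peaked at 9.2 h in that fit, with 10.37 ± 0.03 at circadian time 6 and 10.14 ± 0.03 at 2 (adjusted p 0.0451 in limma). Ndufaf4, also of complex I, peaked at 15.9 h, with 10.36 ± 0.07 at 14 and 10.02 ± 0.06 at 2 (adjusted p 0.0483 in limma). Both Sdhaf1 and Ndufaf4 passed with the block too, and not without it (adjusted p 0.0526 and 0.154 in limma).

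Of the 17 members called with the block, 13 had a fitted peak between 19 and 21 h, and 15 were also higher at circadian time 18 than at 10. These counts are not separate results. With the block, the second set enters the cosine only through the difference of 18 minus 10. A rise from 10 to 18 by itself places the fitted peak between those hours. By role they were 7 of 12 assembly factors, 6 of 27 complex I accessory subunits, 0 of 6 complex I core subunits, 4 of 17 ATP synthase subunits, and 0 of the 29 of complexes II, III and IV (4 at an unadjusted p below 0.05, against 31.9% of all genes). Their median amplitude was 0.22 (range 0.13 to 0.31) with the block and 0.07 in the first set alone; since the blocked fit chose them, its larger value is largely fixed by that choice. Over all members the median was 0.07 with the block and 0.03 in the first set, against 0.09 and 0.08 over all genes tested.

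**Figure D1:**
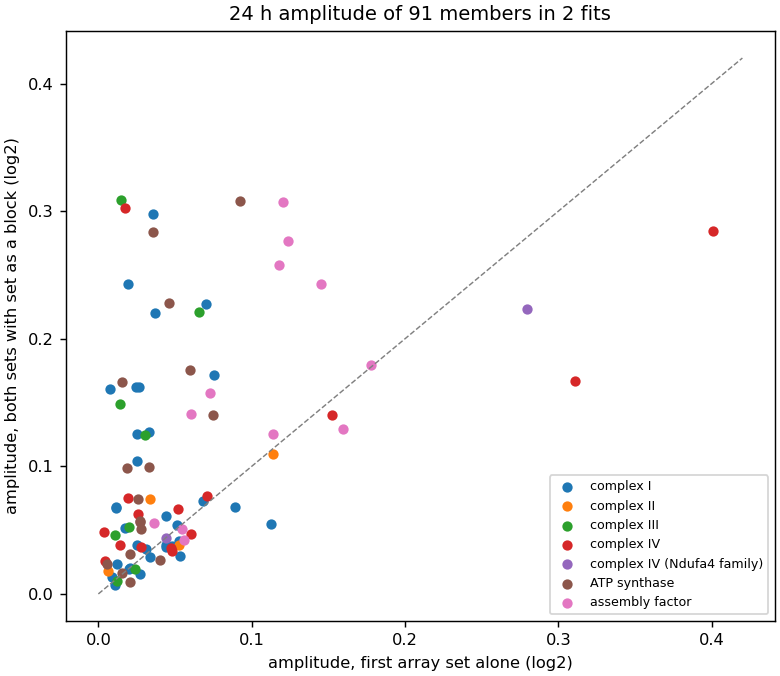
Each point is 1 of 91 members, coloured by complex, with its 24 h amplitude (log2) in the first array set alone on the x axis and in both sets with the set as a block on the y axis; the dashed line marks equal values. A column of subunits sits at the left edge, with first-set amplitudes below 0.1 and blocked amplitudes up to 0.31.

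The main feature of the module was a difference between circadian times 10 and 18, both within the second array set. Of 91 members 38 (41.8%) were higher at 18 and 0 were lower (1 at an unadjusted p below 0.05, against 15.5% of all genes). Over all genes 11.6% were higher and 9.55% lower (limma, fit with 1 level per circadian time, adjusted p below 0.05). Of the 91 members 39 (42.9%) had all 3 profiles of circadian time 10 below all 15 others, against 8.72% of all genes, and 37 of these are among the 38. That overlap is not a separate result, since being below all others includes being below circadian time 18. The first array set also enters the count of 39. The median difference, circadian time 18 minus 10, was 0.17 (log2) over the members and 0.00 over all genes. Without the 4 profiles with an Acta1 signal over 1000 (46 h replicate 1, 70 h, 54 h replicate 1 with 78 h replicate 1, and 78 h replicate 2), which leaves 1 profile at each of both times, 14 members were higher (15.4%, against 3.82% of all genes). Without 78 h replicate 2 alone, 32 were higher and 1 lower, against 10.5% and 7.89% of all genes. The 18S signal, which also separated circadian times 10 and 18, was lowest in 78 h replicate 2 (9.36, against 10.68 and 10.98 in the other profiles of 18).

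Muscle transcripts were not equal in those remaining profiles. The Acta1 signal was 31.8 in 46 h replicate 2, inside the first set's 14.3 to 58.6, and 192 in 54 h replicate 2, above it, so it differed in the same direction as the members. The 38 members, which were chosen for a difference that these profiles are part of, were 0.09 to 0.87 (median 0.33, log2) higher in 54 h replicate 2 than in 46 h replicate 2. Cidea, a lipid droplet protein of brown fat, was at 11.78, 12.06 and 12.09 (log2) at circadian time 10. At 18 it was at 11.13 in 54 h replicate 2 and at 12.31 and 12.61 in the other profiles. The profiles of 18 thus lay on both sides of those of 10. Without the 4 profiles with a Cidea signal over 6000, 38 members were higher at 18 and 3 lower, against 10.2% and 7.99% of all genes. The part of muscle and of brown fat in the difference was not tested. In whole glands, fewer cells of a type and less RNA per cell cannot be told apart.

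In complex I, which takes electrons from NADH, 11 of 27 accessory subunits were higher at 18 (median difference 0.15) and 1 of 6 core subunits (median 0.13). Ndufb2, an accessory subunit of the membrane arm, had log2 signals of 11.10, 11.20 and 11.26 at circadian time 10 and 11.90, 12.18 and 12.39 at 18, against 12.10 to 12.45 in the first set. The profiles of circadian time 10 were all below the rest, and those of 18 lay on both sides of the first set's lowest. The difference was 0.97 ± 0.10 (log2, SE), or 1.96-fold, with an adjusted p of 6.75e-06 in limma. Ndufs5, an accessory subunit, was at 11.37 ± 0.03 at circadian time 10 and 12.20 ± 0.24 at 18 (SD, n = 3), and the core subunit called was Ndufv2, an iron-sulphur protein of the NADH-oxidising tip, at 12.11 ± 0.06 and 12.68 ± 0.17.

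On their brightest probe sets, the other electron-carrying core subunits of complex I did not pass. Ndufs1, the largest iron-sulphur protein, was at 11.49, 11.53 and 11.57 at circadian time 10 and 11.46, 11.56 and 11.97 at 18. Ndufv1, which binds NADH, was at 12.06 to 12.15 and 11.85 to 12.24. Both pairs of times overlapped, with differences of 0.13 ± 0.11 and -0.10 ± 0.12 (log2, SE). The calls of core subunits changed with the probe set. Ndufs7 passed on another probe set, with a difference of 0.70. Of the other probe sets of Ndufs8, that with 0.30 passed and those with 0.04 to 0.19 did not. Ndufv2 did not pass on its others (0.18 and 0.21).

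Complex II oxidises succinate and also belongs to the citrate cycle. On the brightest probe sets, 0 of its 4 subunits were called between 18 and 10 in limma, and 0 at an unadjusted p below 0.05. Sdha, its flavin-carrying catalytic subunit, was at 12.44 to 12.66 at circadian time 10 and 12.48 to 12.77 at 18, a difference of 0.06 ± 0.09 (adjusted p 0.681 in limma). Sdhb, its iron-sulphur subunit, and Sdhd, one of its membrane anchors, had differences of 0.11 ± 0.10 and -0.05 ± 0.12, and their signals overlapped between the times. On its other probe set Sdhd differed by 0.47, which did not pass (adjusted p 0.0621 in limma). The other probe sets of Sdha and Sdhc differed by 0.05 and 0.10.

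In complex III, which passes electrons from ubiquinol to cytochrome c, 4 of 5 small subunits were higher at 18 and 0 of the 3 larger proteins. Uqcr11, the smallest of its subunits, had log2 signals of 11.24, 11.33 and 11.36 at circadian time 10, 11.92, 12.51 and 12.72 at 18, and 12.49 to 12.87 in the first set. Circadian time 10 was far below all others, while 2 of the 3 profiles of 18 reached the first set and 54 h replicate 2 did not. The difference was 1.07 ± 0.14 (SE), 2.11-fold, with an adjusted p of 6.25e-05 in limma. Uqcrq, Uqcr10 and Uqcrh, the other small subunits called, differed by 0.66 ± 0.12, 0.51 ± 0.11 and 0.41 ± 0.08. The Rieske iron-sulphur protein Uqcrfs1 (0.18 ± 0.10) and the core proteins Uqcrc1 (0.19 ± 0.13) and Uqcrc2 (0.00 ± 0.10) did not pass in limma, with adjusted p from 0.241 to 0.996. All these values are of the brightest probe sets. On another probe set the remaining small subunit, Uqcrb, passed (0.51). Uqcrq did not pass on its others (-0.04, 0.10 and 0.45), while Uqcr10 (0.89 and 0.49) and Uqcrh (0.64) did, and Uqcrc2 (0.19) again did not.

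In complex IV, the cytochrome c oxidase, 4 of 15 members were higher at 18 on their brightest probe sets. Cox8a, the widely expressed form of the smallest subunit, had log2 signals of 11.03, 11.07 and 11.49 at circadian time 10, 11.90, 12.42 and 12.50 at 18, and 12.78 to 13.03 in the first set. The 3 groups did not overlap. The difference between 18 and 10 was 1.08 ± 0.13 (SE), 2.11-fold, with an adjusted p of 3.41e-05 in limma. The other members called had smaller differences: Cox6c 0.25 ± 0.08, Cox7a2 0.23 ± 0.07 and Cox4i1, the main form of the largest nuclear subunit, 0.17 ± 0.05. The calls in complex IV changed with the probe set. Cox5a (0.53), Cox5b (0.32), Cox6a1 (0.28, against -0.11 on the brightest) and Cox7a2l (0.24) passed on at least 1 other probe set. Cox7a2 also passed on its other (0.34), and Cox6c did not (-0.07).

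ATP synthase had 11 of 17 subunits higher at 18. All 3 genes for the c ring passed (Atp5g1 0.91 ± 0.08, Atp5g2 0.30 ± 0.10 and Atp5g3 0.15 ± 0.04), as did 4 of 5 small membrane subunits, 2 of 4 of the outer stalk and 2 of 5 of the catalytic F1 head. The split by role depended on the probe set. On another probe set the outer stalk subunits Atp5h (0.55) and Atp5pb (0.74) passed. Atp5g2 (-0.05) and the head's Atp5a1 (-0.02 and -0.08) did not pass on their others. Atp5e, the epsilon subunit of the head, was at 10.85, 10.86 and 10.86 at circadian time 10, 11.63, 11.84 and 11.86 at 18, and 12.17 to 12.53 in the first set. The 3 groups did not overlap, and 18 minus 10 was 0.92 ± 0.08 (adjusted p 1.55e-06 in limma). Atp5a1, the alpha subunit, differed by 0.32 ± 0.08 (adjusted p 0.0113), and Atp5b, the catalytic beta subunit, by 0.09 ± 0.05 (adjusted p 0.284). For Atp5b the signals were 13.04, 13.09 and 13.14 at circadian time 10, 13.13, 13.14 and 13.26 at 18, and 13.10 to 13.31 in the first set, overlapping throughout.

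Among the 12 assembly factors 7 were higher at 18, with Ndufaf2 and Ndufaf3 of complex I at 0.86 ± 0.08 each. Ndufaf2 had log2 signals of 9.90, 9.93 and 10.01 at circadian time 10, 10.61, 10.79 and 11.00 at 18, and 10.67 to 11.03 in the first set. Only the profiles of circadian time 10 stood apart. Ndufaf5, a methyltransferase-family factor for complex I, differed by 0.74 ± 0.08, and Sdhaf3 by 0.69 ± 0.11.

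**Figure D2:**
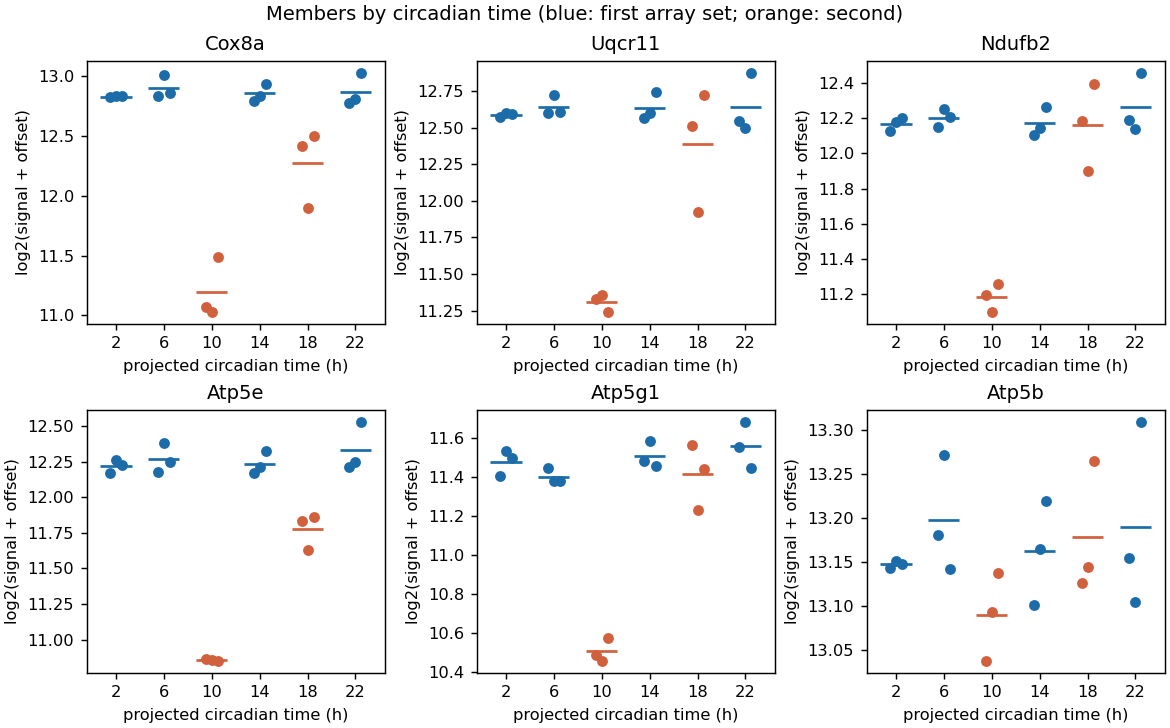
Each panel gives 1 gene, with projected circadian time in hours on the x axis and log2(signal + 51) on the y axis; points are the 3 profiles of a time, bars their mean, and colours the array set. Cox8a, Uqcr11, Ndufb2, Atp5e and Atp5g1 are lowest at circadian time 10, while Atp5b overlaps between times.

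**Figure D3:**
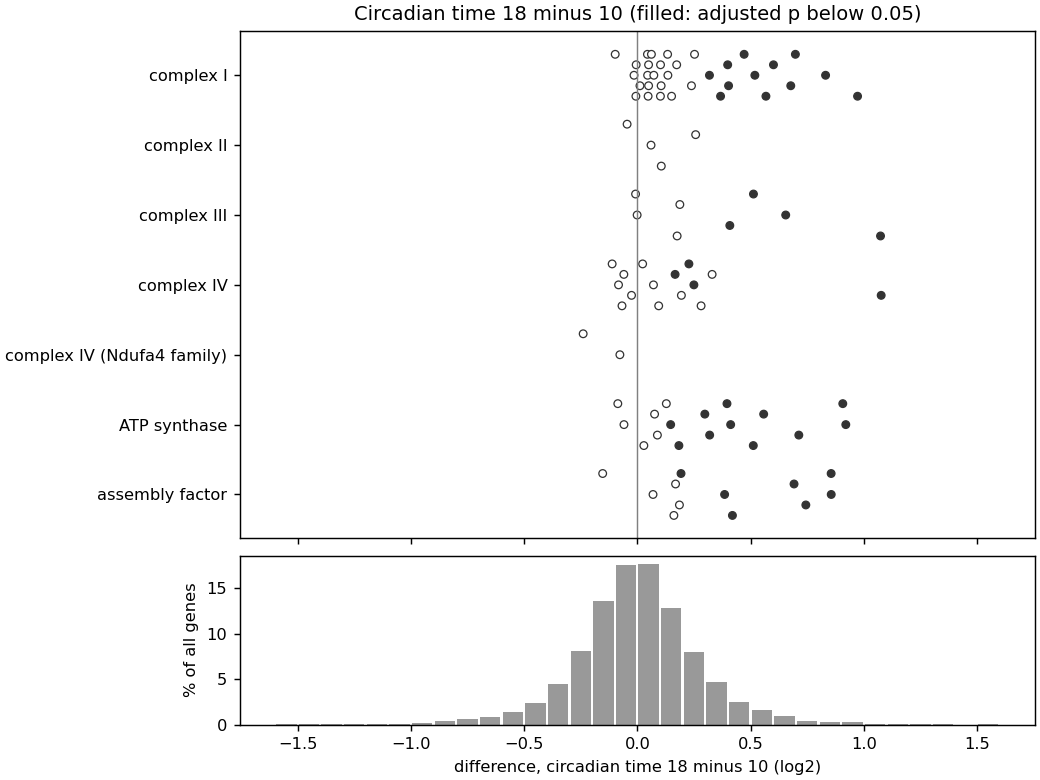
The upper panel gives the difference of circadian time 18 minus 10 (log2) for each of 91 members by complex, filled where limma's adjusted p is below 0.05, and the lower panel gives the share of all 13879 genes in bins of the same difference. The 38 filled points all lie above 0, and the bins of all genes centre on it.

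The call depended on which probe set of a gene was read. Of the members, 49 had 75 other probe sets past the filter, and 34 of these 75 (45.3%) were higher at 18 and 0 lower (also 0 at an unadjusted p below 0.05), against 10.3% and 15.1% of all genes' other probe sets (limma over 27021 probe sets). On another probe set alone, 19 further members passed, which makes 57 of 91 (62.6%) with any probe set, against 15.6% of all genes counted in the same way. More members than other genes have a further probe set (53.8% and 40.9%), and among the 49 such members 35 (71.4%) were higher on any, against 20.9% of all such genes. Ndufc1, an accessory subunit of complex I, differed by 0.05 on its brightest probe set and by 0.91 on the other, Ndufb9 by 0.10 and 0.77, and Ndufb7 by 0.05 and 0.74. The reverse held too: of 16 members called on the brightest probe set that had others, 8 had at least 1 that was not called. Ndufb5 differed by 0.70 and 0.11, and Atp5a1 by 0.32, -0.02 and -0.08. For Cox8a (1.08 and 0.98) and Ndufb2 (0.97 and 0.96) both probe sets gave like values.

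Promoters were searched for the recognition sequence of nuclear respiratory factor 1, a known activator of many of these genes, in the 250 bases before and 50 after each RefSeq start (build GRCm38.p6). Of the 94 members 78 had a promoter in the table, and 19 of these (24.4%) held its motif, GCGC, any base and then TGCGC, on either strand, against 5.19% of all genes. It was in 9 of the 31 with a promoter that were higher at 18 and in 10 of the other 47. These others include Ndufb4, which holds the motif but did not pass the filter and was not tested. AAGATGGCG, bound by YY1, was in 7 members (8.97%, against 1.64% of all genes), the ETS-like CCGGAAGT in 5 (6.41%, against 4.31%) and the clock's E-box CACGTG in 6 (7.69%, against 8.09%). A match describes the letters and does not show binding. As examples, 3 members higher at 18 with a match to the first motif wholly before the start are shown. They need not be every such member. Sdha, which did not pass and holds 3 such matches, is shown with them to set called and uncalled members side by side. All lie on the minus strand and are written 5′ to 3′ with the match in capitals, at chr15:102671055-102671114, chr5:108434415-108434474, chr4:123718250-123718309 and chr13:74350304-74350363 in turn.
Atp5g2: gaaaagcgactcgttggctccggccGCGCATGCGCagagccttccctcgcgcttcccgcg
Atp5k: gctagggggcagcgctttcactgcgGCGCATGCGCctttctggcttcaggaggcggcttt
Ndufs5: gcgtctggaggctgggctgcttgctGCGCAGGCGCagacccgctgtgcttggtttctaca
Sdha: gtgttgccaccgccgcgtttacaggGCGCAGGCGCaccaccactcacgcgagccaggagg

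Between the array sets, beside the cosine, 42 members (46.2%) were lower and 6 (6.59%) higher in the second set, against 29.6% and 16.9% of all genes. The set and what circadian times 10 and 18 share against a cosine cannot be told apart. The lower members were 12 of 33 complex I, 2 of 4 complex II, 5 of 8 complex III, 4 of 15 complex IV and 10 of 17 ATP synthase subunits, 7 of 12 assembly factors and both Ndufa4 and Ndufa4l2. Ndufa4, a subunit first assigned to complex I and now to complex IV, was at 11.91 to 12.12 in the 6 profiles of the second set (median of 12.06) and 12.55 to 12.82 in the 12 of the first, with no overlap and a set difference of -0.61 ± 0.05 (SE, adjusted p 5.6e-08 in limma). Its relative Ndufa4l2, known as induced by low oxygen, differed by -0.69 ± 0.16 and its signals overlapped.

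The 6 members higher in the second set include 4 of complex IV. Cox6b2, the testis-restricted form of a subunit that joins complex IV monomers, was at 9.74, 9.92 and 9.93 at circadian time 10, 9.20, 9.97 and 10.21 at 18 and 7.46 to 8.41 in the first set. The sets did not overlap, and the set difference was 2.08 ± 0.15 (SE, adjusted p 9.4e-09 in limma). Its first-set signals lay around the filter on dim signals (median and filter both 7.88). Cox6b2 thus passed the filter mainly through the second set, where it was high, and the test is not separate from that. Cox6b1, its widely expressed partner, differed by 0.20 and overlapped (12.81 to 13.23 in the first set, 12.96 to 13.29 in the second). Cox7a2l, which takes part in joining complexes into supercomplexes, was at 12.04 to 12.21 and 12.35 to 12.58, with no overlap and a difference of 0.32 ± 0.04.

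Cox6a2, the heart and skeletal muscle form of its subunit, was the fourth, with a set difference of 0.52 ± 0.11. Its log2 signals were 8.48, 8.79 and 9.14 at circadian time 10, 8.80, 8.83 and 9.36 at 18, and 8.21 to 8.57 in the first set. The highest value was in the profile of 54 h replicate 1 with 78 h replicate 1, which also had the highest Acta1 (12.98, log2), and the lowest of the second set was in 46 h replicate 2, with Acta1 at 6.37. The widely expressed Cox6a1 was at 13.37 to 13.46 in the first set and did not pass (set difference -0.07, adjusted p 0.0889 in limma). Cox4i2 (8.67 to 9.27), the lung form, and Cox8c (9.76 to 10.06), the testis form, passed none of these tests.

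**Figure D4:**
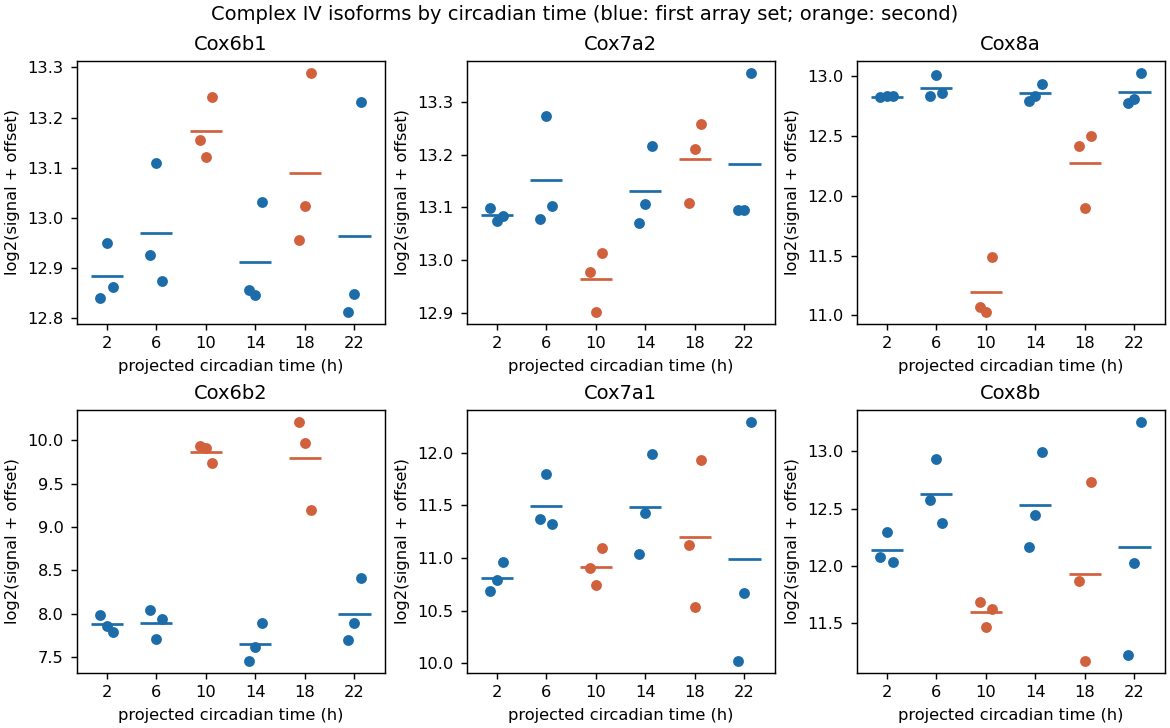
Widely expressed complex IV subunits (upper row) and tissue-restricted isoforms (lower row), with projected circadian time in hours on the x axis and log2(signal + 51) on the y axis; points are profiles, bars means of 3, and colours the array set. Cox6b2 is above 9 in the second set and below 8.5 in the first, and Cox7a1 and Cox8b vary most within circadian time 22.

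Within the first array set, where no subunit passed the rhythm test, the subunits moved together between profiles of the same circadian time. Of the 79 tested subunits 73 (92.4%) had their highest first-set signal in 82 h replicate 1, against 10.5% of all genes. For 55 (69.6%) the 3 highest profiles were 82 h replicate 1, 74 h replicate 1 and 66 h replicate 1 with 42 h replicate 2, against 5.13% of all genes. These are also the 3 first-set profiles with the most Cidea. The mean log2 signal of the subunits was 12.49, 12.36 and 12.37 in them and 12.16 to 12.26 in the other 9, with the lowest in 58 h replicate 1, which also had the least Cidea (10.59). Circadian time 22 thus held both the highest and the lowest of the first-set means, in 82 h replicate 1 and in 58 h replicate 1. The median correlation with Cidea over the 12 first-set profiles was 0.76 for the subunits and 0.07 for all genes. Within a profile, Cidea and the subunits were read from the same tissue and array. Beside Cox8b and Cox7a1, the highest correlations were those of Ndufb8 (0.92), Cox6c (0.92) and Ndufc2 (0.91). The 6 members called for a rhythm lay on both sides of 0, with Ndufb10 at 0.73, Sdhaf3 at 0.20, Ndufaf5 at -0.20, Sdhaf4 at -0.29, Atp5g1 at -0.52 and Ndufaf2 at -0.62.

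Cox7a1 and Cox8b, the forms of their subunits known from heart, skeletal muscle and brown fat, were the 2 members whose signals spread over more than 1 log2 unit in the first set. Cox7a1 ranged from 10.02 in 58 h replicate 1 to 12.29 in 82 h replicate 1, both at circadian time 22, with a median of 11.18 over the first set. Cox8b ranged from 11.23 to 13.25 in the same profiles. Ucp1, the uncoupling protein that defines brown fat, was at 9.15 and 13.19 there, and Cidea at 10.59 and 13.13. The lowest and the highest profile of the first set were thus the same for all 4 genes.

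Across the first set Cox8b followed Cidea with a Pearson r of 0.99 and a Spearman rho of 0.99 (n = 12, two-sided permutation test, adjusted p 2e-05 and 8e-05 over 8 relations), and r was 0.98 without the 2 profiles with the farthest Cidea. Cox7a1 gave 0.96 and 0.92 (adjusted p 2e-05 and 0.00016, permutation test), and 0.92 without those 2. With Ucp1 the r was 0.93 for Cox7a1 and 0.91 for Cox8b (adjusted p 2e-05 each, permutation test), and 0.88 and 0.83 without the 2 farthest; rho was 0.94 for both (adjusted p 8e-05, permutation test). The unadjusted p of 1e-05 behind the r values is the smallest these permutations can give. In the second set (n = 6, exact permutation test) the r with Cidea was 0.87 for Cox7a1 and 0.88 for Cox8b (adjusted p 0.00444 and 0.00741, with rho of 1 and 0.94), and 0.91 and 0.97 without the 2 farthest. With Ucp1 it was 0.68 and 0.66 there (exact permutation test, adjusted p 0.0413 and 0.0639, with rho of 0.66 and 0.60), and -0.07 and -0.58 without the 2 farthest, so the relation with Ucp1 in the second set rests on those 2 profiles. Neither Cox7a1 nor Cox8b passed a rhythm test (adjusted p 0.45 to 0.931 in the 3 limma fits) or differed between circadian times 18 and 10 (adjusted p 0.698 and 0.615), while Cox8b was lower in the second set by the test beside the cosine (-0.73 ± 0.28, adjusted p 0.044).

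**Figure D5:**
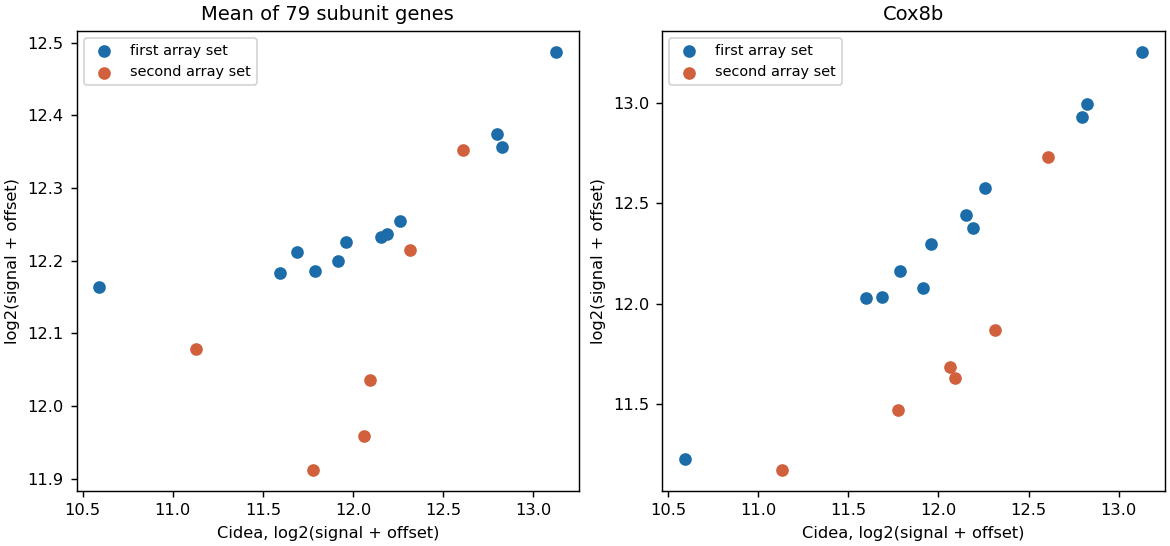
The mean log2 signal of 79 subunit genes (left) and the log2 signal of Cox8b (right) against that of Cidea, 1 point per profile and 1 colour per array set. The 3 first-set profiles with the most Cidea have the 3 highest subunit means (12.36 to 12.49), and the 3 profiles of circadian time 10 have the lowest (11.91 to 12.04).

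Between the first and the second cycle in darkness, 0 of 91 members and 0% of all genes differed (limma with circadian time as a factor, 13 profiles with a clear cycle), while 48 members (52.7%) had an unadjusted p below 0.05, against 9.72% of all genes. The 82 h replicate 1 profile belongs to the second cycle and 58 h replicate 1 to the first.

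Counts for genes that work beside the members are set against the shares of all genes, which were 12.8% for a rhythm, 17.8% with the block, 12.3% in the first set, 11.6% higher at 18 than at 10 and 9.55% lower. Assembly factors outside the prefix had 2 of 17 called for a rhythm (11.8%), 5 with the block (29.4%) and 1 in the first set (5.88%), with 6 higher at 18 (35.3%) and 0 lower (1 at an unadjusted p below 0.05). Cox16, an assembly factor of complex IV, was 0.74 ± 0.06 higher at 18 (SE, adjusted p 3.02e-07 in limma), and Bcs1l, which inserts the Rieske protein, 0.43 ± 0.08 (adjusted p 0.00149). Lrpprc, which stabilises mitochondrial messenger RNA, passed with the block (amplitude 0.28, peak at 17.0 h). Electron carriers and ubiquinone synthesis lay near those shares, with 2 of 13 (15.4%) called for a rhythm (Coq4 and Coq2, of ubiquinone synthesis), 2 with the block, 1 in the first set (7.69%) and 2 higher at 18, and cytochrome c (Cycs) and cytochrome c1 (Cyc1) differed by 0.07 ± 0.12 and 0.03 ± 0.08.

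The citrate cycle had 0 of 15 called in each of the 3 rhythm fits in limma (0 at an unadjusted p below 0.05 in each) and 0 higher at 18 (1 unadjusted), with 1 lower, the succinate-CoA ligase subunit Suclg2 (fell by 0.21 from circadian time 10 to 18 on the log2 scale). Regulators of mitochondrial biogenesis had 2 of 12 called for a rhythm (16.7%), 3 with the block (25%) and 1 in the first set (8.33%), with 1 higher (8.33%) and 2 lower (16.7%) at 18. On so few genes, 1 call moves the share by 8.33 percentage points. Pprc1, a coactivator of the PGC-1 family, had an amplitude of 0.35 ± 0.05 (adjusted p 0.00135 in limma) and with the block a peak at 11.9 h, whereas the mitochondrial transcription factor Tfam was 0.27 ± 0.07 higher at 18 and the coactivator Ppargc1a 0.33 lower (18 minus 10 of -0.33 ± 0.10). Of the coupling and nucleotide exchange proteins 0 of 6 were called for a rhythm (5 at an unadjusted p below 0.05), 1 with the block (16.7%), 1 in the first set and 1 higher at 18, the ADP/ATP carrier Slc25a5 (0.36 ± 0.07, adjusted p 0.00178 in limma).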

How the data were processed

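Probe set signals of 24 Affymetrix arrays were used as the authors deposited them: linear intensity values, 1 column per sample. Their summarisation and scaling are not given in the sources used here. Values were analysed as log2(intensity + 51), 51 being the 10th percentile, which makes fold changes of weak signals too small. From the 45101 probe sets those below the 40th percentile of mean log2 (7.88) were dropped. Near-copy arrays (all ratios within 5% for signals of at least 50) were averaged, and array sets were split by a ThrX-3 signal of 300. limma 3.58.1 in R 4.3.3 tested 24 h rhythms and contrasts, with trend, and Benjamini-Hochberg adjustment over 13879 genes at 0.05. scipy 1.17.1 ran the exact permutation tests of the second set and matplotlib 3.10.9 drew the plots. The 100000 permutations of the first set were drawn without scipy's permutation test. The limma steps were tested on simulated data. Sequences are from RefSeq (GRCm38.p6).

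Members and gene lists were chosen with earlier results of these data known. Genes named are the members called with the block, the 5 with the largest difference between circadian times 18 and 10, complex IV isoforms, core subunits and the 2 of each complex with the lowest p; others were named after their values were seen. Alternatives were other offsets, no filter, quantile normalization, 24 separate arrays, no trend, replicate number or time as a block, and profiles left out. Arrays give no depth: their number limits the precision.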

Additional observations from a re-analysis of the deposited data

How the results depend on the processing

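The offset of 1 or 4 times larger, quantile normalization and a fit without trend moved none of the counts of called members by over 1.5 times. Direction was followed only for named members that had passed, though not all of them, and none reversed under any alternative run. Members that had not passed were not followed. Cox8b, 0.33 higher at 18 on all profiles, was at 11.47 in 46 h replicate 2 and 11.17 in 54 h replicate 2. Only these profiles of circadian times 10 and 18 remain without those with an Acta1 signal over 1000. The count of members with a rhythm (6) became 2 without the filter (8.96% of all genes), 20 with all 24 arrays as separate samples, which counts near-copies as independent (30.2% of all genes), 1 without the profiles with an Acta1 signal over 1000 (7.32%) and 3 without those with a Cidea signal over 6000 (8.97%), an alternative chosen after seeing the data. When any difference between the 6 circadian times was tested 50 passed, or 54.9%, close to the 54.0% of all genes. With the block the count (17) became 5 without the Acta1 profiles (13.9% of all genes), and the 38 members that differed between circadian times 18 and 10 became 14 (5.14%), where the lone profile of each time is assumed to vary like the others. Members lower at 18 numbered 2 with quantile normalization, 2 with 24 arrays, 3 without the Cidea profiles and 1 without 78 h replicate 2 or without 54 h replicate 1 with 78 h replicate 1. The first-set count (4) became 7 without the Cidea profiles (8.91% of all genes).

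Leaving out each profile in turn gave 1 to 9 members with a rhythm, 8 to 24 with the block, 29 to 39 between 18 and 10, 2 to 9 in the first set and 0 between cycles. The shares of all genes moved too, over 8.49% to 15.9%, 12.9% to 18.7%, 14.7% to 26.1%, 7.33% to 13.7% and 0% in turn. The rhythm count was 1 without either 46 h replicate (8.49% and 8.77% of all genes). It was 2 without 70 h, 38 h replicate 1, 62 h replicate 1 or the pair of 38 h replicate 2 with 62 h replicate 2 (9.18% to 9.96% of all genes). It was 3 without 42 h replicate 1, 58 h replicate 1, 66 h replicate 2 or 78 h replicate 2 (10.3% to 12.1% of all genes). With the block the count was 8 and 9 without 46 h replicates 1 and 2 (12.9% and 14.1% of all genes). It was 10 without 70 h (14.9%) and 11 without 54 h replicate 1 with 78 h replicate 1 (17.1%). In the first set the count was 9 without 82 h replicate 1 (13.7% of all genes) and 2 without most other profiles (7.33% to 11.0%). With the replicate number as a block over 24 arrays, 18 members had a rhythm (29.7% of all genes), and 24 beside the array set (33.6%); the numbers do not pair the samples (18 of 66 pairs of same-numbered deviations correlated over 0.1, median 0.01). Time as a random block gave 9 (12.7% of all genes). The causes were not tested.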
